A study of Mus musculus with 4 samples.

Results

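The genes described here are 5 matrix metalloproteinases, Mmp2, Mmp11, Mmp13, Mmp14 and Mmp16, and the 4 tissue inhibitors of metalloproteinases, Timp1, Timp2, Timp3 and Timp4. They were picked out by symbol, with earlier results of these data known, and all 9 were found among the 19465 genes of the count tables. Their UMIs (unique molecular identifiers, each standing for a captured transcript) were followed across 6357 tissue spots of wild-type mouse heads at embryonic days 14.5 (E14.5) and 15.5 (E15.5). The heads had been fixed in formalin, embedded in paraffin and sectioned for Visium, in which barcoded spots beneath a section record where each transcript lay. Each stage had 2 capture areas. The single-section area held replicate 1, and the multi-section area held replicates 2, 3 and 4, whose sections are called A, B and C here because the labels do not tell which is which. All groups were wild-type, and no treatment was given. The labels do not say whether the areas came from separate embryos, so p-values measure only the spread between these areas, which may be technical.

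Matrix metalloproteinases are zinc-dependent proteases that cut collagens and other proteins of the extracellular matrix. Most are secreted as inactive precursors, whereas Mmp14 and Mmp16 sit in the cell membrane and can activate the Mmp2 precursor, a step in which Timp2 takes part as a bridge. The Timp proteins bind the active site of these enzymes, and Timp3 is held in the matrix. In the developing skeleton, Mmp13 is the collagenase known from osteoblasts and hypertrophic cartilage, Mmp9 is a gelatinase known from osteoclasts, and loss of Mmp14 is known to disturb membranous bone.

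Total UMIs ranged from 15438992 in the E14.5 single-section area to 109127953 in the E14.5 multi-section area, and the median per spot from 6752 to 64051 over the 4 areas. The E14.5 single-section area and the E14.5 section A, with a median of 10037.5 UMIs per spot, were the shallow ones, and values of the scarcer genes rest on few UMIs there. The areas shared 540 to 1388 spot barcodes in pairs, since the array carries its own fixed barcodes. Levels are given as CPM, the UMIs of a gene for every 1000000 UMIs of the same spots. Probe numbers per gene were not given in the sources used here, so levels were compared between samples and not between genes. A spot can hold several cells, and fewer cells of a type cannot be told apart from less RNA per cell.

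The members lie on 8 chromosomes of GRCm38. Mmp13 (ENSMUSG00000050578) spans chromosome 9 from 7272514 to 7283331 on the plus strand, Mmp14 (ENSMUSG00000000957) chromosome 14 from 54431612 to 54445364 on the plus strand, and Mmp2 (ENSMUSG00000031740) chromosome 8 from 92827291 to 92853420 on the plus strand. Mmp11 (ENSMUSG00000000901) spans chromosome 10 from 75923222 to 75936496 on the minus strand, and Mmp16 (ENSMUSG00000028226) chromosome 4 from 17852893 to 18119145 on the plus strand. Timp2 (ENSMUSG00000017466) spans chromosome 11 from 118301069 to 118355740 on the minus strand. The other inhibitor genes each lie wholly inside a synapsin gene of the opposite strand. Timp1 (ENSMUSG00000001131) spans chromosome X from 20870166 to 20874735 on the plus strand inside Syn1. Timp3 (ENSMUSG00000020044) spans chromosome 10 from 86300372 to 86349506 on the plus strand inside Syn3, and Timp4 (ENSMUSG00000030317) chromosome 6 from 115241892 to 115252205 on the minus strand inside Syn2. Mmp11, Mmp16 and Timp2 partly overlap Chchd10, Gm11860 and Cep295nl, respectively.

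Mmp13 varied most between sections. Its level was 2.85 CPM in E14.5 replicate 1, and sections A, B and C of that stage had 7.91, 34.9 and 20.2 CPM. At E15.5 replicate 1 had 13.0 CPM, section A 186 CPM, section B 14.4 CPM and section C 101 CPM. The sections of the stages overlapped, because E15.5 replicate 1 and section B lay below the E14.5 section B. Mmp13 was found in few spots, 3.44%, 19.3%, 22.6% and 40.2% of those of the E14.5 single-section, E14.5 multi-section, E15.5 single-section and E15.5 multi-section areas.

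Timp1, a secreted inhibitor, had 6.48, 16.5, 13.6 and 24.98 CPM in those 4 areas, in the same order. It had a UMI in 7.41%, 34.9%, 44.7% and 49.3% of spots. Both of its E15.5 areas were above the E14.5 single-section area, but E15.5 replicate 1 was below the E14.5 multi-section area. Shares of spots move with depth, which was lowest in the E14.5 single-section area.

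The membrane protease Mmp14 had 143 and 182 CPM at E14.5 and 219 and 255 CPM at E15.5, the single-section area first. The gelatinase Mmp2 had 221 and 241 CPM, then 249 and 349 CPM. Timp2 had 87.1 and 110 CPM at E14.5 and 144 and 207 CPM at E15.5. For these 3 genes, which act together in Mmp2 activation, the lower E15.5 area was above the higher E14.5 one. Mmp11, known as stromelysin-3 from stroma next to epithelium, showed the same order with 50.1, 43.5, 54.0 and 59.5 CPM.

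Mmp16 was the most even member, with 42.0, 42.0, 37.1 and 45.8 CPM in the 4 areas. Timp3 had 77.8, 143, 93.4 and 156 CPM, so that its single-section areas were the low ones at both stages. Timp4 was scarce, with 10, 118, 54 and 128 UMIs in all, or 0.648, 1.08, 0.802 and 1.44 CPM, and little can be said of it at this depth. Thus 4 of 9 members had areas that did not overlap and were higher at E15.5, and none was lower, where 24.9% of all 15609 genes tested were higher and 15.2% lower in that way. By section, all 9 members overlapped between stages.

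**Figure D1:**
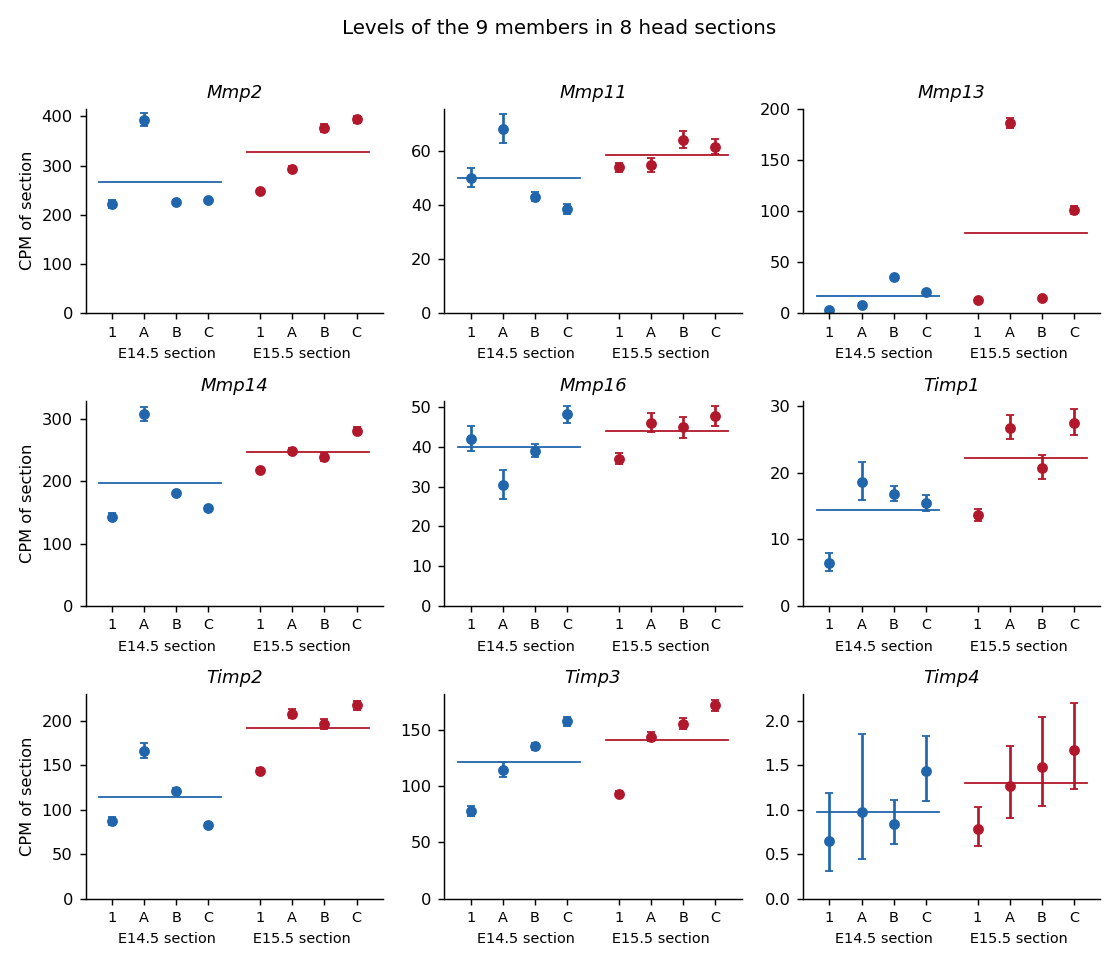
CPM of each of the 9 genes in each of the 8 sections, with E14.5 and E15.5 in separate colours. The Mmp13 points spread from 2.85 to 186 CPM and those of the other genes far less, and the stages overlap in every panel.

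The stage comparison addressed whether these genes differ between E14.5 and E15.5 over all tissue spots of the head sections. It was not limited to the palate and does not speak for palate spots alone. UMIs summed over the tissue spots of an area were compared, 2 areas against 2, with the quasi-likelihood test of edgeR and Benjamini-Hochberg adjustment over all genes, and a gene was called at an adjusted p under 0.1. No member was called, and none of the 15609 genes was (0%), although 930 (5.96%) had an unadjusted p under 0.05 and DESeq2 called 28. Timp2 had the lowest unadjusted p of the members, with a log2 fold change of 0.76 ± 0.27 (SE, 0.0237 unadjusted), which did not pass the correction (adjusted p = 0.769, edgeR). Mmp13 had a log2 fold change of 1.86 ± 1.08 and the same adjusted p of 0.769 by edgeR. With 1 area left out it ran from −0.28 without the E15.5 multi-section area to 4.35 without the E14.5 one. For Mmp14 the log2 fold change was 0.47 ± 0.26 and for Timp1 0.65 ± 0.49, the latter from 0.12 without E14.5 replicate 1 to 1.55 without the E14.5 multi-section area. That of Mmp2 was 0.30 ± 0.27, from 0.06 without the E15.5 multi-section area to 0.52 without E15.5 replicate 1, and that of Mmp11 0.22 ± 0.23. Values for Timp4, Timp3 and Mmp16 were 0.24, 0.10 and −0.08, all smaller than their SE.

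To place the members in tissue, spots were ranked by defining markers, none of which is a member. In each section, the 10% of spots with the highest share of UMIs in a marker list were taken. The choice was among 6053 spots that lay in a section and had at least 1000 UMIs, which gave 606 spots per list. Left out were 88 tissue spots in no section, in pieces of under 100 spots. Such a selection is a range of a score and not a cell type. For bone, 136 spots lay within 10% of the limiting score. The other lists had from 104 (cartilage) to 361 (fibrous connective tissue), 393 (endothelium) and 399 (neuron) such spots, so their limits were less sharp at the upper end. The bone list was Ibsp, Sp7, Ifitm5 and Dmp1, and other bone genes not used for the choice (Spp1, Alpl, Runx2 and Phex) were all higher in the chosen spots of every area, by 6.03- to 12.2-fold in sum. Each selection was then compared with the other spots of the same area by edgeR, with the area as a term. For every list but bone, these other spots included bone-marker-rich ones.

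Bone-marker-rich spots carried more of most members. Mmp13 and Timp1 had the highest fold changes. By edgeR with adjustment over all genes, 7 of 9 members were higher, none lower, and 2 not called. In the same comparison 52% of 14282 genes were called, 23.9% higher and 28.1% lower. The median log2 fold change was 0.81 over the members and −0.03 over all genes.

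Mmp13 had 19.0 CPM in bone-marker-rich spots and 1.87 CPM in other spots of the E14.5 single-section area. The values were 164 and 7.94 CPM in the E14.5 multi-section area. At E15.5 they were 93.5 and 4.13 CPM in the single-section area and 442 and 65.2 CPM in the multi-section area. The level inside was thus 6.79 to 22.6 times that outside, in every area, although the levels themselves spread widely. The log2 fold change was 3.96 ± 0.32 (SE, adjusted p = 0.000146, edgeR). These spots held 38.6%, 73.9%, 71.5% and 46.3% of all Mmp13 UMIs, against 5.82%, 12.0%, 9.97% and 11.3% of all UMIs, in the same order of areas. The call held in each of the 16 alternatives, with log2 fold changes between 3.07 and 4.66.

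Timp1 had 42.5 CPM inside and 4.29 CPM outside in the E14.5 single-section area, and 62.6 and 10.2 CPM in the multi-section area. At E15.5 it had 56.0 and 8.88 CPM, then 77.3 and 18.7 CPM. Its inside levels lay closer together than those of Mmp13, and none overlapped an outside level. The log2 fold change was 2.68 ± 0.15 (adjusted p = 4.68e-05, edgeR), and it lay between 2.48 and 2.89 in all 16 alternatives.

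The pericellular group changed less. Mmp14 was higher in bone-marker-rich spots by a log2 fold change of 0.99 ± 0.09 (adjusted p = 0.000283, edgeR), Mmp2 by 0.81 ± 0.13 (0.00259) and Timp2 by 0.81 ± 0.11 (0.00122). Mmp16, whose protein shares the membrane anchoring of the Mmp14 type, was higher by 0.64 ± 0.09 (adjusted p = 0.00129, edgeR). All 4 were higher in 4 of 4 areas. Spots rich in neuron or radial glia markers, called neural-marker spots here, make up part of the comparison. They are only the top 10% of each list, so spots with lower scores, which may also be brain, stayed in. Without the neural-marker spots the values were 0.79 for Mmp14, 0.55 for Mmp2, 0.62 for Timp2 and 0.65 for Mmp16.

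Timp3 was higher by only 0.41 ± 0.11 (adjusted p = 0.0214, edgeR), and below the outside level in the E15.5 multi-section area. It was not called without TMM scaling (0.28, adjusted p = 0.106), without the E14.5 multi-section area (0.36, adjusted p = 0.105) or without the neural-marker spots (0.19, adjusted p = 0.173). Mmp11 had 0.28 ± 0.14 (adjusted p = 0.141) and Timp4 −0.22 ± 0.29 (adjusted p = 0.581), and neither was called, although Mmp11 was without the E15.5 multi-section area (0.45, adjusted p = 0.0368).

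**Figure D2:**
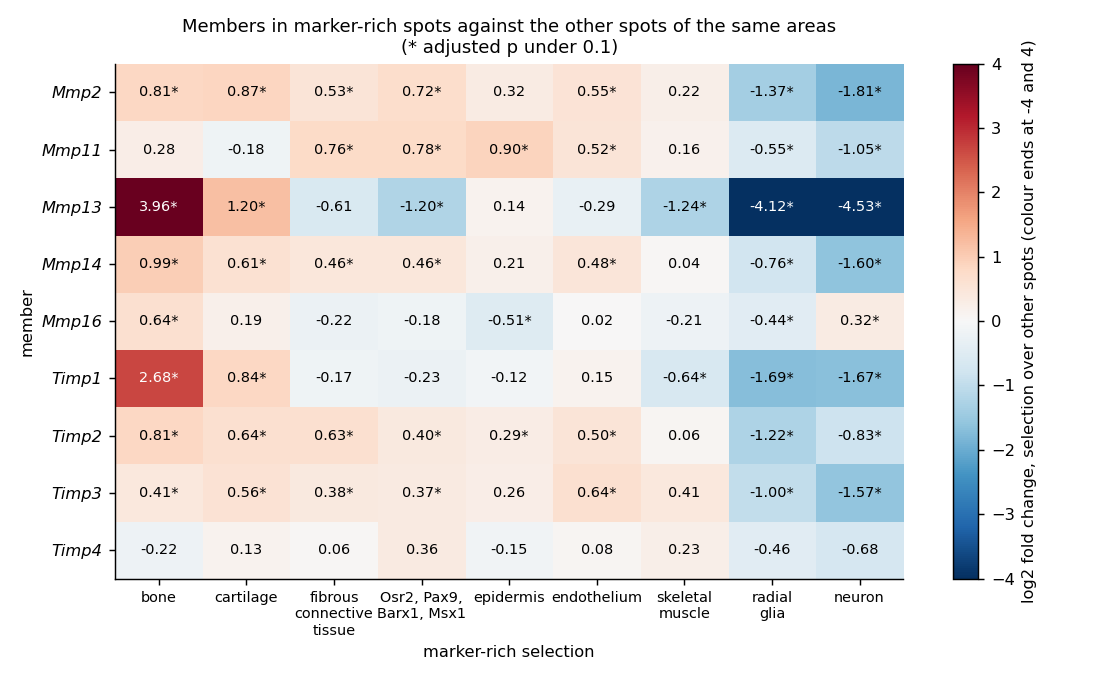
Log2 fold change of each gene in marker-rich spots against other spots, for 9 marker lists, from edgeR with 4 areas. Bone holds the highest values of Mmp13 (3.96) and Timp1 (2.68), and the neuron and radial glia lists hold the lowest.

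Other genes of the proteolytic system came from a list of 45, of which 44 were in the files. Of the other Mmp genes, 8 of 16 had enough counts to test in bone, 4 were higher and 3 lower, with a median of 0.14. Mmp9 led them with 2.98 ± 0.13 (adjusted p = 2.28e-05, edgeR), and had 185, 455, 236 and 517 CPM inside against 22.7, 50.4, 31.5 and 104 CPM outside. Mmp24 and Mmp17, membrane-type enzymes, were lower by log2 values of −1.77 and −1.28. Of 11 activators and regulators, 7 were higher and 4 lower (median 0.58), among them the proteoglycan Spock1 at −0.68. Of 10 Adam and Adamts proteases, 6 were higher and none lower, with a median of 0.33. Of 7 substrates, 5 were higher and none lower (median 0.50), led by the collagen I chains Col1a1 at 2.64 and Col1a2 at 2.54. In the stage comparison of whole areas, none of these genes that were tested was called.

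The bone-marker-rich spots also held more of a 7-gene osteoclast list (Ctsk, Acp5, Ocstamp, Atp6v0d2, Calcr, Oscar and Mmp9), 3.64 to 7.13 times the level outside, from 611 to 1500 CPM inside. Of its genes, 5 were higher in every area, and Oscar had 0 UMIs inside in the E14.5 single-section area. A 5-gene macrophage list was at 128 to 180 CPM inside and 103 to 170 CPM outside, with 2 of 5 genes higher in every area. A hypertrophic cartilage list (Col10a1, Ihh, Panx3 and Pth1r) was 4.45 to 8.69 times higher inside, with 3 of 4 genes higher in every area. Panx3 and Pth1r are also known from osteoblasts. The part of these cells in the Mmp13 and Timp1 levels was not tested.

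On the maps, bone-marker-rich spots formed separate patches, and Mmp13 filled some of them and left others nearly empty. To describe this, and after the maps had been seen, touching bone-marker-rich spots were joined into patches of at least 5 spots, which gave 39 patches with 556 spots over 8 sections. A further 50 spots lay in smaller pieces. The lowest and highest patch of the E14.5 section B had 2.53 CPM Mmp13 from a single UMI (exact 95% Poisson interval 0.0641 to 14.1) and 449 CPM. In the E14.5 section C they had 1.40 (0.0354 to 7.79) and 225 CPM.

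The same held at E15.5. In replicate 1, the patches ran from 1.82 (0.0462 to 10.2) to 158 CPM Mmp13. In section A they ran from 5.55 (0.672 to 20.05) to 1327 CPM, in section B from 4.03 (0.102 to 22.5) to 78.7 CPM and in section C from 29.8 to 879 CPM. In each of these 6 sections the highest patch was far outside the counting interval of the lowest. The intervals cover counting error only.

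Timp1 did not share this split. Over the same patches it ran from 38.0 to 86.7 CPM in the E14.5 section B, from 40.5 to 55.6 CPM in section C, and from 45.0 to 85.4 CPM in E15.5 replicate 1. At E15.5 it ran from 48.3 to 102 CPM in section A, from 58.3 to 96.7 CPM in section B and from 52.7 to 87.5 CPM in section C. The highest Timp1 patch was thus 1.37 to 2.28 times the lowest of its section. E14.5 replicate 1 and section A were left out of these ratios, since Timp1 rests on 38 and 77 UMIs in their bone-marker-rich spots. Over 6 sections the median of this ratio was 1.78 for Timp1 and 2.01 (1.17 to 3.12) for Mmp11. For Mmp2, Mmp14, Mmp16, Timp2 and Timp3 it was 1.38, 1.58, 1.62, 1.68 and 1.38, and for the bone markers that chose the spots 1.59. The osteoclast list came between, at 2.18- to 8.74-fold.

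With the patches of all sections pooled, those rich in Mmp13 were mostly also rich in osteoclast genes. The order did not hold within every section. In the E15.5 section B, the patch with the most Mmp13 (78.7 CPM) had 581 CPM of the osteoclast list. The patch with the least Mmp13 (4.03 CPM) had 822 CPM of it. Over 35 patches with at least 100000 UMIs, Pearson's r on log2(CPM + 1) was 0.85 between Mmp13 and the osteoclast list, and 0.40 between Timp1 and that list. With the bone markers, r was 0.37 for Mmp13 and 0.32 for Timp1. These are descriptions, since patches share sections and libraries and differ in depth. Spot by spot within the bone-marker-rich set, Mmp13 had a mean r over 4 areas of 0.56 with Mmp9, 0.51 with Ctsk and 0.46 with Acp5. With bone genes it had 0.41 for Spp1 (0.27 to 0.56), 0.10 for Alpl and 0.08 for Ibsp, and with Col10a1 it had 0.23 and 0.38 in the multi-section areas. Timp1 had 0.08 with Mmp9, 0.31 with Spp1 and 0.22 with Ibsp, and r between Mmp13 and Timp1 was 0.14.

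**Figure D3:**
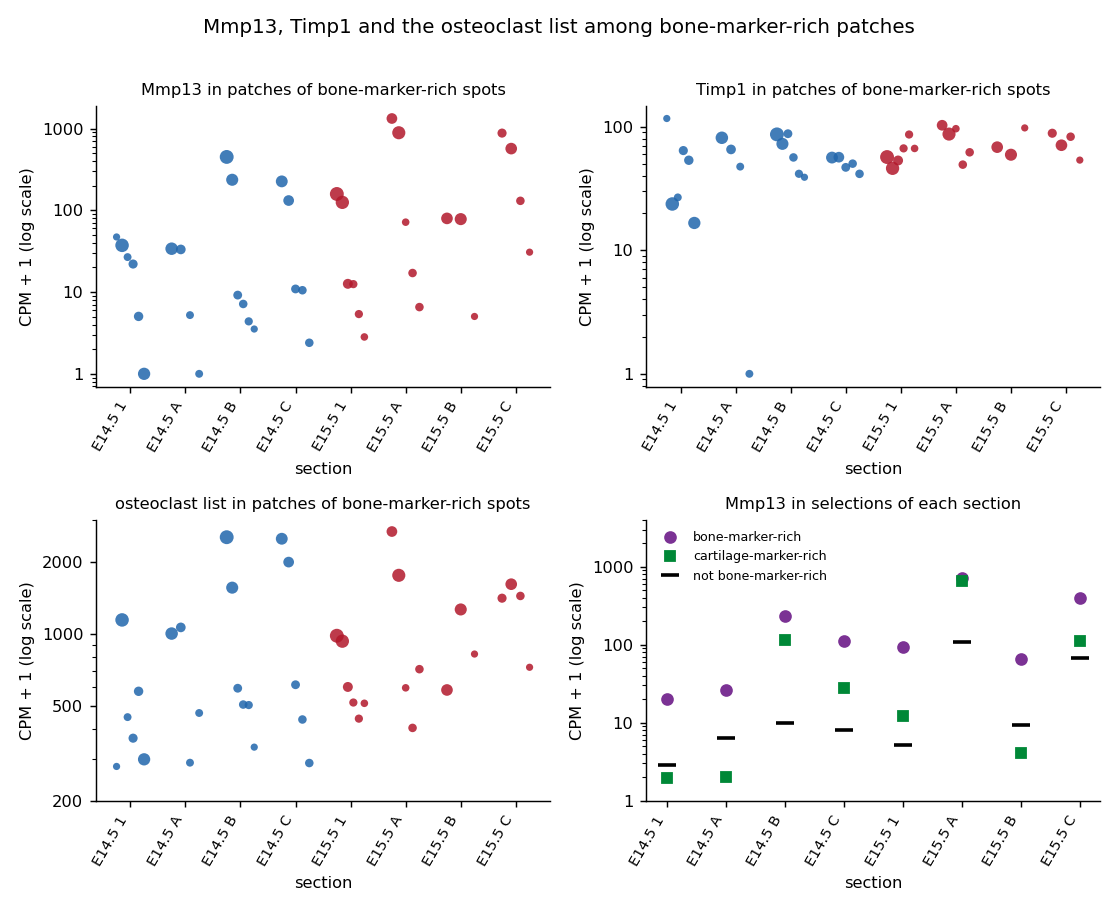
CPM + 1 on log axes by section. The first 3 panels show patches of bone-marker-rich spots, point area growing with the number of spots and patches kept in the same order, for Mmp13, Timp1 and the osteoclast list, with E14.5 in blue and E15.5 in red. The last panel gives Mmp13 in selections of each section. Mmp13 splits into high and low patches while Timp1 stays within 1.37- to 2.28-fold in the 6 deeper sections.

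**Figure D4:**
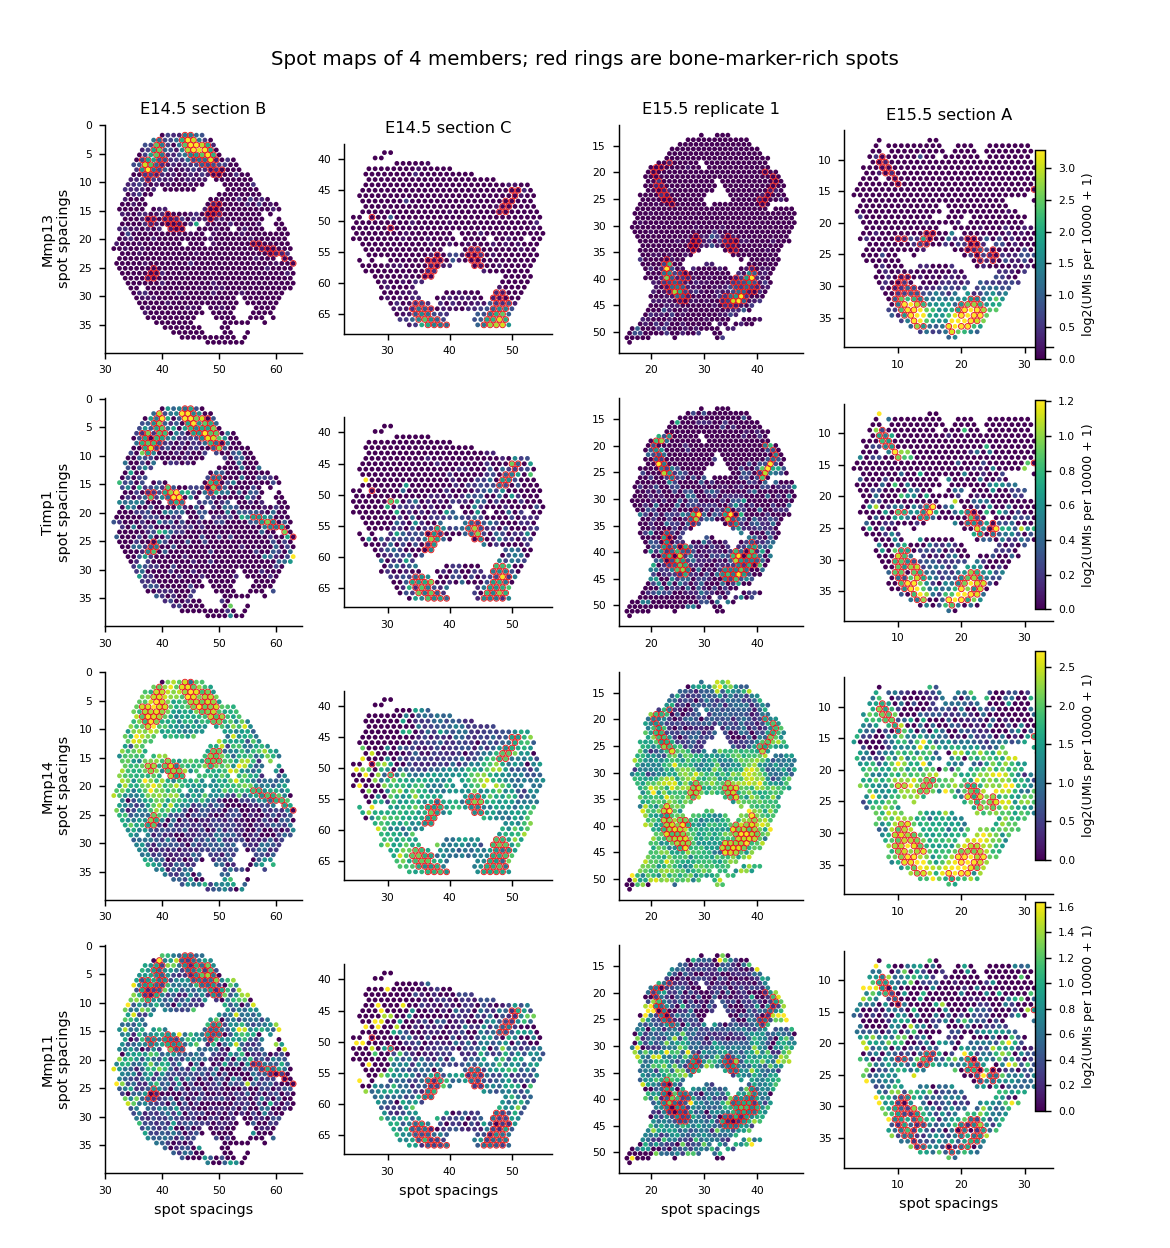
Spot maps of Mmp13, Timp1, Mmp14 and Mmp11 (UMIs per 10000 UMIs of a spot, colours ending at the 99th percentile) in the E14.5 sections B and C, E15.5 replicate 1 and the E15.5 section A, with red rings around bone-marker-rich spots. Mmp13 marks some ringed patches, Timp1 is at 38.0 CPM or more in all ringed patches, and Mmp14 and Mmp11 spread beyond them.

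The sequences before the starts of 3 of these genes are shown because Mmp13 and Timp1 led in bone and Mmp14 followed. RefSeq tables of GRCm38.p6 held 7 of the 9 members, without Mmp2 and Mmp16. In the 250 bases before each start, 4 motifs were searched on both strands, the AP-1 element TGAGTCA, the RUNX element ACCACA, the TATA box TATAAA and the SP1 element GGGCGG. They occur in 4.46%, 14.05%, 12.4% and 32.7% of 32851 promoters. Capitals mark the motifs found.
Mmp13, chr9:7272264-7272513, plus strand: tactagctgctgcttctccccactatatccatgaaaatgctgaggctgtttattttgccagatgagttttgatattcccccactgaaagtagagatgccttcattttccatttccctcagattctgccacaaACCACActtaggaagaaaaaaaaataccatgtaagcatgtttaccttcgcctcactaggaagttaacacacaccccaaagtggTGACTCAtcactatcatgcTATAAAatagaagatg
Mmp14, chr14:54431348-54431597, plus strand: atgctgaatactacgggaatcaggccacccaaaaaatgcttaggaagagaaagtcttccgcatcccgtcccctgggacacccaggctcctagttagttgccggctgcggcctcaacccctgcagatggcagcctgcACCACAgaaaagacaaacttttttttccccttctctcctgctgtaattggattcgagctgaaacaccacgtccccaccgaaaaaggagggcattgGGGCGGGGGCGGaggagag
Timp1, chrX:20869916-20870165, plus strand: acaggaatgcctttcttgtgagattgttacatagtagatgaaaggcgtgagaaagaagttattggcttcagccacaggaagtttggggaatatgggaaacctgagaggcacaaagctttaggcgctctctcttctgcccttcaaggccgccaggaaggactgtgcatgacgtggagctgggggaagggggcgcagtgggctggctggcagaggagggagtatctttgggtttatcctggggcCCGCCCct
Of the 7 members, Mmp13 was the only carrier of the AP-1 element, 35 to 29 bases before its start on the opposite strand. It was also the only carrier of the letters TATAAA, 16 to 11 bases before the annotated start on the gene strand. The RUNX element was found in Mmp13, 118 to 113 bases before the start, and in Mmp14. The SP1 element was in Mmp11, Mmp14, Timp1, Timp2 and Timp3 and not in Mmp13 or Timp4. A match of letters is a description and not a site.

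With distance from bone, Mmp13 and Timp1 were lower. In the ring of spots 1 spacing from the nearest bone-marker-rich spot, Mmp13 was at a median of 23.6% of its level in bone over 4 areas (12.7% to 55.8%), and at 1.63% in the ring beyond 4 and up to 8 spacings. Timp1 was at 35.1% (26.1% to 54.1%) at 1 spacing and at 9.23% in the farther ring. With the top 5% of spots as bone, Mmp13 at 1 spacing was 57.9% (23.0% to 149%), so it was higher beside these spots than in them in 1 area, the E15.5 multi-section one.

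The other members reached farther. Mmp14 was at 74.6% at 1 spacing and 41.0% in the farther ring, and Mmp16 at 77.1% and 64.8%. Mmp2 kept 93.4% and 45.2%, and Timp2 91.2% and 46.6%. Beyond 8 spacings Mmp2 was at 20.5% (16.3% to 26.1%) and Timp2 at 34.2% (31.6% to 43.7%). Mmp11 was above its bone level at 1 spacing, at 120% (115% to 135%), and Timp3 was at 114% (94.1% to 131%). Timp4 had too few UMIs for such a profile.

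**Figure D5:**
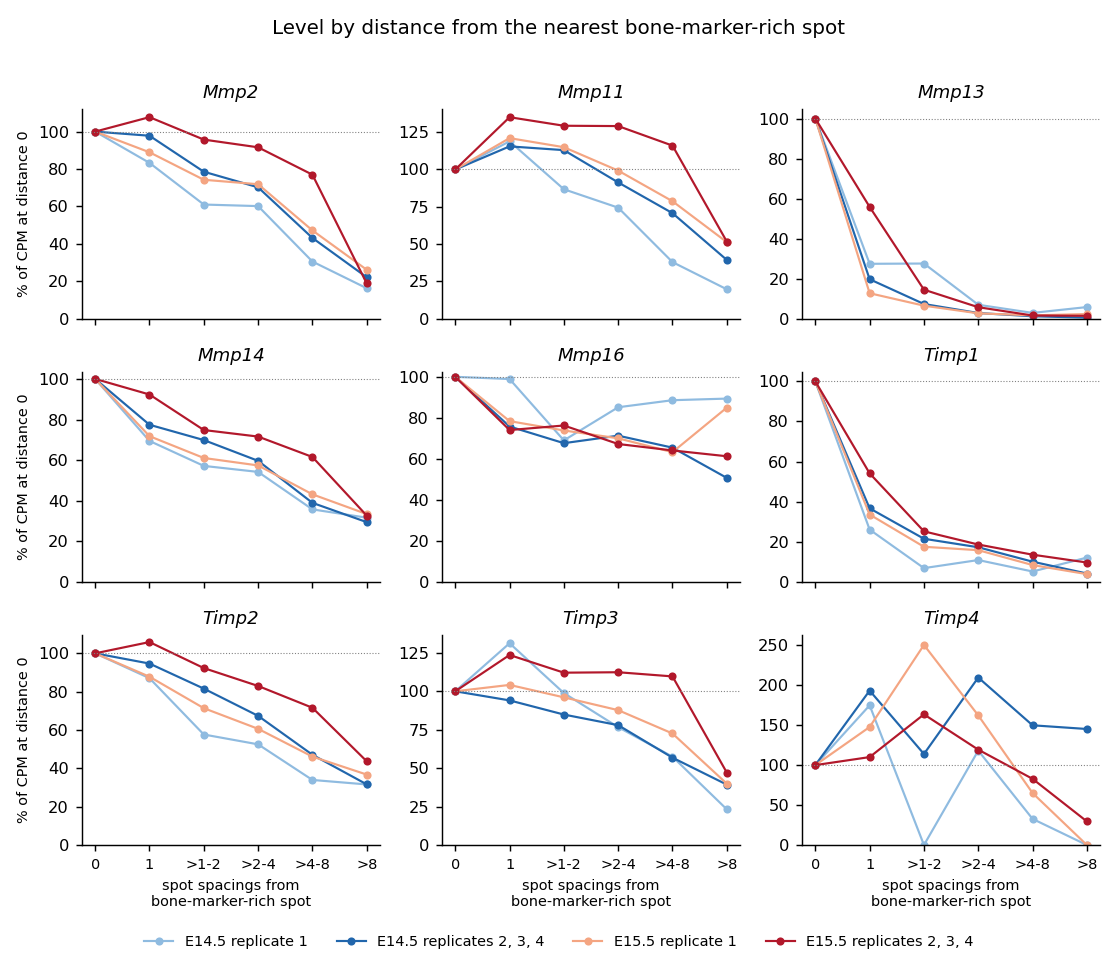
Level of each gene in rings of distance from bone-marker-rich spots, in spot spacings, as a percentage of the level in those spots, with a line per capture area. Mmp13 and Timp1 drop to medians of 23.6% and 35.1% at 1 spacing, whereas Mmp11 is at 120%.

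In cartilage-marker-rich spots (Col2a1, Col9a1, Acan and Matn1), 6 of 9 members were higher and none lower, where 29.9% of 14414 genes were called, 14.3% higher and 15.5% lower. The other cartilage genes tested as a check were all higher, by 5.74- to 12.0-fold in sum. Mmp2 had a log2 fold change of 0.87 ± 0.12 (adjusted p = 0.00576, edgeR), Timp1 0.84 ± 0.12 (0.00557), Timp2 0.64 ± 0.09 (0.00499), Mmp14 0.61 ± 0.07 (0.00248) and Timp3 0.56 ± 0.13 (0.0296). Timp1 was not called when spots shared with other selections were left out (0.34, adjusted p = 0.189), and 65 spots were both bone- and cartilage-marker-rich. With the check markers choosing the spots, the calls of Timp1 (0.29, adjusted p = 0.464) and Timp2 (0.41, adjusted p = 0.153) were lost. The Timp3 call was lost without the E14.5 multi-section area (0.59, adjusted p = 0.135). Without E14.5 replicate 1, Mmp16 (0.25, adjusted p = 0.0374) and Mmp11 (−0.31, adjusted p = 0.0501) were called as well.

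Mmp13 was called in cartilage at 1.204 ± 0.365 (adjusted p = 0.0610, edgeR), but its areas did not go together. Inside and outside levels were 0.935 and 3.01 CPM in the E14.5 single-section area, the former from a single UMI, and 68.0 and 20.9 CPM in the multi-section area. At E15.5 they were 11.2 and 13.2 CPM, then 286 and 85.6 CPM. Mmp13 was thus higher in both multi-section areas and lower in both single-section areas. The call was lost by DESeq2 (0.66, adjusted p = 0.527), without the E14.5 multi-section area (0.82, adjusted p = 0.366) and without the E15.5 multi-section area (0.78, adjusted p = 0.316). With spots in a single selection the value was −0.06.

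Sections differed as well. The cartilage-marker-rich spots of the E15.5 section A had 651 CPM Mmp13, those of the E14.5 section B 113 and of the E15.5 section C 111 CPM, and those of the other 5 sections 0.935 to 26.6 CPM. The E15.5 section A also had the most Col10a1, the collagen of hypertrophic cartilage, in these spots, at 113 CPM, against 0 to 9.35 CPM in the other 7 sections. The E15.5 section C had 0 UMIs of Col10a1 there. Of osteoclast genes, Mmp9 was also highest in the E15.5 section A, at 577 CPM against 39.3 to 255 CPM. Acp5 and Ctsk were highest in the E14.5 section B (147 and 425.5 CPM), with 130 and 410 CPM in the E15.5 section A. The part of these cells was not tested. In the spots that were cartilage- but not bone-marker-rich, Mmp13 had 1.04, 8.72, 3.73 and 229 CPM and Col10a1 3.11, 1.87, 0.508 and 44.1 CPM in the 4 areas. Both genes were highest there in the E15.5 multi-section area.

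Mmp11 had its highest values outside the skeleton. In epidermis-marker-rich spots it was at 148 and 72.0 CPM at E14.5 and 73.5 and 101 CPM at E15.5, against 47.1, 40.9, 52.4 and 56.4 CPM in other spots. Every inside level was above every outside level. The log2 fold change was 0.90 ± 0.16 (adjusted p = 0.00528, edgeR). In spots rich in Osr2, Pax9, Barx1 and Msx1, transcription factors of the facial and palatal mesenchyme, it was 0.78 ± 0.11 (0.00592), with 113, 66.4, 88.2 and 85.3 CPM inside. It was 0.76 ± 0.12 (adjusted p = 0.00320) in fibrous connective tissue and 0.52 ± 0.10 (0.0103) in endothelium, the latter not called without the E14.5 multi-section area (0.48, adjusted p = 0.107).

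The epidermis selection passed 3 of 4 check genes in every area (2.54- to 8.06-fold in sum) and shared 300 of its 606 spots with fibrous connective tissue, so spots at the skin surface held both. A macrophage list was 1.61 to 2.099 times higher there, and its part was not tested. Besides Mmp11, Timp2 was higher in epidermis (0.29 ± 0.10, adjusted p = 0.0488, edgeR) and Mmp16 lower (−0.51 ± 0.17, adjusted p = 0.0566), where 44.8% of 14219 genes were called, 22.4% in each direction. In epidermis the Timp2 call was lost in 7 of 16 alternatives and the Mmp16 call in 4. That of Timp2 was lost without the E14.5 multi-section area (adjusted p = 0.224) or E15.5 replicate 1 (0.226), and that of Mmp16 without either E15.5 area (0.210 and 0.142). Mmp2 was called without the E15.5 multi-section area (0.47, adjusted p = 0.0349), and Mmp13 was lower without the E14.5 multi-section area (−0.63, adjusted p = 0.0634).

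The Osr2 list did not hold up as a tissue, since 2 of 4 check genes were higher in every area (1.15- to 2.59-fold in sum), and it is named by its genes. Other lists were also higher in these spots, the epidermis list by 3.10- to 5.28-fold and the fibrous connective tissue list by 1.28- to 2.67-fold, and their part was not tested. There, 5 members were higher and 1 lower, where 33.4% of 14250 genes were called, 15.7% higher and 17.7% lower. Next to Mmp11, the clearest was Mmp2 at 0.72 ± 0.14 (adjusted p = 0.0135, edgeR). Mmp14 at 0.46, Timp2 at 0.40 and Timp3 at 0.37 were called too, but each lost the call without the E14.5 multi-section area (adjusted p = 0.152, 0.186 and 0.239) or without E15.5 replicate 1 (0.105, 0.105 and 0.132), and Timp3 also without E14.5 replicate 1 (0.101). Mmp13 was lower at −1.198 ± 0.317 (adjusted p = 0.0376), a call lost by DESeq2 (−0.86, adjusted p = 0.142), without the E14.5 multi-section area (−1.07, 0.197) and without the E15.5 one (−0.75, 0.168).

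Endothelium-marker-rich spots (Pecam1, Cdh5, Kdr and Tie1) gave the highest mean level of Timp3, an inhibitor that also binds the VEGF receptor Kdr. It had 172, 210.3, 145.1 and 197 CPM inside against 73.9, 137, 88.8 and 153 CPM outside. Each area was higher inside, though the groups overlapped, since the lowest inside level, 145.1 CPM, lay below 153 CPM. The log2 fold change was 0.64 ± 0.11 (adjusted p = 0.00592, edgeR). In all, 5 members were higher here and none lower, where 36.3% of 14195 genes were called, 17.3% higher and 19% lower. Mmp2 had 0.55, Mmp14 0.48 and Timp2 0.50, and the calls of Mmp2 and Mmp14 were lost without the E14.5 multi-section area (adjusted p = 0.112 and 0.108). Mmp13 was lower without the E15.5 multi-section area (−0.63, adjusted p = 0.0588). The endothelial check genes were all higher in these spots, by 1.76- to 2.23-fold in sum. The fibrous connective tissue list was 1.28 to 2.09 times higher, with 4 of 4 genes higher in every area. The Osr2 check list was 1.62 to 2.43 times higher and a macrophage list 1.54 to 2.47 times. Of the 606 spots, 242 were in no other selection. The part of these other lists was not tested.

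In fibrous connective tissue (Dcn, Lum, Col3a1 and Dpt), 5 of 9 members were higher and none lower, where 55.1% of 14247 genes were called, 27.6% higher and 27.5% lower. These were Mmp11, Timp2 at 0.63 ± 0.14 (adjusted p = 0.0102, edgeR), Mmp2 at 0.53, Mmp14 at 0.46 and Timp3 at 0.38. The Mmp14 call was lost without the E14.5 multi-section area (0.39, adjusted p = 0.104), and the Timp3 call without either E14.5 area (0.22, adjusted p = 0.182, and 0.33, adjusted p = 0.254). Mmp13 (−1.15, adjusted p = 0.00470) and Mmp16 (−0.41, adjusted p = 0.0763) were lower without the E14.5 multi-section area. A macrophage list was 2.17 to 2.52 times higher in these spots, with 5 of 5 genes higher in every area, and its part was not tested.

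Skeletal muscle was lower in the bone pair than the other spots, which included bone-marker-rich ones. By mean level over the 4 areas, both genes were lower still in the radial glia and neuron lists. In muscle, Mmp13 was lower by a log2 fold change of −1.24 ± 0.18 (adjusted p = 0.00163, edgeR) and Timp1 of −0.64 ± 0.13 (0.00662). The other 7 members were not called, where 46.2% of 14294 genes were, 20.9% higher and 25.2% lower. Timp3 had 0.41 ± 0.18 (adjusted p = 0.115) and was called without the E15.5 multi-section area (0.57, adjusted p = 0.00980), as was Mmp2 (0.38, adjusted p = 0.0398). Mmp16 was lower without E14.5 replicate 1 (−0.26, adjusted p = 0.0632).

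Neuron- and radial-glia-marker-rich spots held the least of nearly all members. Of the neuron check genes 4 of 4 were higher in every area (3.06- to 5.24-fold in sum). Of the radial glia check genes 3 of 4 were (1.42- to 2.35-fold). In neuron-marker-rich spots 7 members were lower and 1 higher, where 72.9% of 14050 genes were called, 34% higher and 38.8% lower. Mmp13 was lower by −4.53 ± 0.39 (adjusted p = 0.000455, edgeR), with 3, 7, 1 and 43 UMIs in the 4 areas. Mmp2 was at −1.81, Timp1 at −1.67, Mmp14 at −1.60, Timp3 at −1.57, Mmp11 at −1.05 and Timp2 at −0.83, all called in each area left out in turn. Timp4 at −0.68 was not called (adjusted p = 0.213).

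Mmp16 was the exception, with 58.1, 47.6, 40.6 and 47.7 CPM in neuron-marker-rich spots against 38.6, 41.5, 36.7 and 46.2 CPM in other spots. It was higher inside in 4 of 4 areas, by a small margin in all but the E14.5 single-section area, and the groups overlapped. The log2 fold change was 0.32 ± 0.11 (adjusted p = 0.0422, edgeR). It was not called with the top 20% of spots (0.20, adjusted p = 0.160) or with other neuron genes choosing the spots (0.29, adjusted p = 0.146). In radial-glia-marker-rich spots (Hes5, Fabp7, Pax6 and Slc1a3), Mmp16 was lower, at −0.44 ± 0.08 (adjusted p = 0.00703). There 8 members were lower and none higher, where 50.7% of 14050 genes were called, 22.6% higher and 28.1% lower. Of these, Mmp11 lost the call without E15.5 replicate 1 (−0.52, adjusted p = 0.158).

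The synapsin genes that enclose Timp1 and Timp3 went the opposite way, whereas Timp4, inside Syn2, was not called. In neuron-marker-rich spots Syn1 was higher by 2.22 ± 0.21, Syn2 by 2.15 ± 0.26 and Syn3 by 2.09 ± 0.14 on the log2 scale (adjusted p = 0.000612, 0.00117 and 0.000264, edgeR), while Timp1 and Timp3 were lower. Whether the counting told the strands apart was not given in the sources used here, and these values are what was measured for each overlapping pair.

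Ordered by mean level over the 4 areas, bone came first for Mmp13 (180 ± 185 CPM, SD, n = 4), Timp1 (59.6 ± 14.4), Mmp14 (331 ± 32.2), Mmp16 (55.6 ± 7.44) and Timp2 (202 ± 36.5). Cartilage came first for Mmp2 (449 ± 73.3), epidermis for Mmp11 (98.6 ± 35.4) and endothelium for Timp3 (181 ± 28.9). For Timp2 the leading selections could not be told apart, since cartilage had 201 ± 69.3 and fibrous connective tissue 195 ± 31.8 CPM. The first selection was above the next in all 4 areas for Mmp13, Timp1 and Timp3 only. For Mmp2, Mmp11, Mmp14, Mmp16 and Timp2 it was so in 3 of 4 areas. Of 72 neighbouring pairs in these orders, 49 did not keep their order in all 4 areas. Neuron or radial glia was last for Mmp2, Mmp11, Mmp13, Mmp14, Timp1, Timp2, Timp3 and Timp4, and epidermis was last for Mmp16.

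No member was called as enriched differently at the 2 stages. In the bone comparison, the interaction of stage and selection called 59 of 14282 genes (0.413%) and no member. The change in enrichment from E14.5 to E15.5 was −0.66 ± 0.48 (log2) for Mmp13 (adjusted p = 0.685, edgeR) and −0.39 ± 0.24 for Timp1 (adjusted p = 0.626). Without E15.5 replicate 1, which leaves that stage with 1 area, it was −1.32 for Mmp13 (adjusted p = 0.00303), and without the E15.5 multi-section area 0.36. The Osr2 list called 1.64% of 14250 genes and no member. The other 7 selections called 0 genes (0%) by edgeR, with 235 to 1209 genes at an unadjusted p under 0.05, and DESeq2 was not run for the interaction. In epidermis, Mmp13 was at 2.69 and 64.7 CPM inside and 2.87 and 23.5 CPM outside at E14.5, and at 7.53 and 74.1 CPM inside and 13.5 and 110.4 CPM outside at E15.5. Its change in enrichment was −2.01 ± 0.33, which failed the correction (adjusted p = 0.9998, edgeR).

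Within bone-marker-rich spots, 2 areas were set against 2. None of 13200 genes was called (0%), with 159 (1.2%) at an unadjusted p under 0.05 and 9 called by DESeq2, and Timp4 was too scarce to test. Mmp13 had 19.0 and 164 CPM at E14.5 and 93.5 and 442 CPM at E15.5, so the stages overlapped. Its log2 fold change was 1.43 ± 0.75 (adjusted p = 0.9999, edgeR). It depended on the areas, with −0.15 without the E15.5 multi-section area, 3.88 without the E14.5 multi-section area, 0.69 without E14.5 replicate 1, and 2.20, called at an adjusted p of 0.000585, without E15.5 replicate 1. With no filter on low counts it was 1.42 and called (adjusted p = 0.00158). Timp1 had 0.29 and Timp2 0.44, Timp3 −0.33 and Mmp11 −0.30.

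Likeness of pattern was measured as the mean over 4 areas of Pearson's r across 6053 spots, after adjustment for section and spot depth, against 11114 genes. The points share libraries, and the values are descriptions. Mmp13 was most like Mmp9 (0.55), Acp5 (0.50) and Spp1 (0.50), and Timp1 most like Phospho1 (0.50), Ibsp (0.49) and Spp1 (0.49). Mmp9 and Acp5 are known from osteoclasts, and Phospho1 and Ibsp from mineralising osteoblasts.

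Mmp2 was most like Igf2 (0.67), Igfbp5 (0.67) and Serpinh1 (0.65), and Mmp14 like Serpinh1 (0.61), Col5a1 (0.61) and Fstl1 (0.59). Timp2 came nearest to Serpinh1 (0.53), Col5a2 (0.52) and Prrx1 (0.51), and Timp3 to Col3a1 (0.51), Igf2 (0.51) and Igfbp4 (0.50). Serpinh1 is a collagen chaperone. Mmp11 was nearest to Fbn2 (0.39), Col3a1 (0.35) and Osr2 (0.35). Mmp16 and Timp4 resembled no gene closely, with top values of 0.17 for Slc26a7 and 0.07 for Klf10. Among members, the highest r was between Mmp2 and Mmp14 (0.58), followed by Mmp2 and Timp2 (0.48), Mmp14 and Timp2 (0.46) and Mmp2 and Timp3 (0.46). Mmp13 and Timp1 had 0.33.

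Spatial clustering, measured by Moran's I between neighbouring spots (0 is no clustering), had a median over 8 sections of 0.72 for Mmp2, 0.69 for Mmp13, 0.56 for Mmp14, 0.51 for Timp3, 0.46 for Timp2 and 0.38 for Timp1. Mmp11 had 0.26 and Mmp16 0.16, and Timp4 was at 0.0017. For Mmp13 the sections ran from 0.0682 in the shallow E14.5 replicate 1 to 0.923 in the E15.5 section A. With every spot thinned to 5000 UMIs, which left out 485, 374, 7 and 75 shallower spots in the 4 areas, Mmp13 had the highest median (0.44), ahead of Mmp2 (0.36) and Mmp14 (0.19). At this depth Mmp13 had a UMI in a median of 5.67% of spots, and Mmp2 in 62.2%.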

How the data were processed

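Sections of formalin-fixed wild-type mouse heads were captured on Visium slides. The counts are unnormalised UMIs of each gene in each spot, as the authors deposited them, made with Space Ranger, and the processing notes name mm10. The version was 1.3.1 for replicate 1 and 2.0.0 for replicates 2, 3 and 4, per the headers of the count matrices. Spots under tissue that lay in a section and had at least 1000 UMIs were used for selections. Sections of 1 area share a library, so counts were summed per area and compared with edgeR 4.0.16 in R 4.3.3 (quasi-likelihood test, TMM, filterByExpr, Benjamini-Hochberg over all genes, called at 0.1), or with DESeq2 1.42.0 as an alternative. Selections used 4 of 5 listed bone markers. Doublets were not called. Positions came from GENCODE M21. Members were named in every comparison, and other genes by their size of change within a list or by likeness. The members, lists and tests were chosen with earlier results of these data known. Tests were checked on simulated data. Alternatives were other scaling, filters, thresholds, spot shares and markers, each area left out, and a replicate block.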

Additional observations from a re-analysis of the deposited data

Results flagged for a closer look

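Over the 4 sections of a stage, 36 groups of values were tested for a section far from the others by Dixon's ratio of the gap to the range, of which chance gives about 1 in 20, and 2 were found. Mmp2 had 393 CPM in the E14.5 section A, the highest of its stage (ratio 0.953), against 221 to 230 CPM in the other 3 sections. Mmp16 had 71.8 CPM in the bone-marker-rich spots of the E14.5 section C (ratio 0.874).

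Barcodes outside the tissue also carried members. In the E14.5 multi-section area, 8 such barcodes with 209555 UMIs held 95 UMIs of the 9 genes. In the E15.5 multi-section area, 11 barcodes with 352936 UMIs held 296. There were no control samples to set them against.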

How the results depend on the processing

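Of the results for members and lists in the alternatives, 350 summary values and 1486 others stayed on their side of the threshold, 53 lost it, 38 gained it and 69 turned sign, while 78 summary values and 7 others moved. Of the values that turned sign, only that of Mmp13 in cartilage was called at the settings of the report, and Mmp13 in epidermis (with the check markers, with spots in 1 selection only and without the E14.5 multi-section area) and Mmp16 in the Osr2 list (with the check markers) were called with the turned sign. Mmp13 and Timp1 in bone were called in every alternative run. The causes of the changes given here were not tested. By DESeq2 the counts were 28 genes called in the stage comparison of whole areas and 9 genes called in the stage comparison within bone. Without E14.5 replicate 1 the sign turned in the stage comparison of whole areas (Timp3 −0.30 and Timp4 −0.051), muscle (Mmp14 −0.0044) and the stage comparison within bone (Mmp11 0.0061 and Mmp16 −0.082). Without E15.5 replicate 1 the sign turned in the stage comparison of whole areas (Mmp16 0.057). Without the E15.5 multi-section area the sign turned in the stage comparison of whole areas (Mmp13 −0.28, Timp3 −0.29 and Timp4 −0.22), the interaction in bone (Mmp13 0.36), epidermis (Timp1 0.14), the Osr2 list (Timp1 0.076), endothelium (Mmp16 −0.0037 and Timp4 −0.24), fibrous tissue (Timp1 0.11) and the stage comparison within bone (Mmp13 −0.15, Mmp16 −0.17 and Timp1 −0.014). With sections as samples the sign turned in the stage comparison of whole areas (Mmp16 0.056). Without the E14.5 multi-section area the sign turned in bone (Timp4 0.029), the interaction in bone (Mmp13 0.26), muscle (Mmp14 −0.0088), epidermis (Mmp13 −0.63 and Timp4 0.13), endothelium (Mmp16 −0.000544) and the stage comparison within bone (Timp3 0.21). With the check markers choosing the spots the counts were 2215 genes called in cartilage, 3 members called in cartilage and 2158 genes called in endothelium. With the check markers choosing the spots the sign turned in bone (Timp4 0.098), cartilage (Mmp16 −0.042), epidermis (Mmp13 −0.98 and Timp4 0.82), the Osr2 list (Mmp16 0.37), endothelium (Mmp13 0.11 and Timp4 −0.065) and fibrous tissue (Mmp16 0.082 and Timp4 −0.49). Without TMM scaling the counts were 1 gene called in the interaction in bone and 151 genes called in the interaction in the Osr2 list. Without TMM scaling the sign turned in muscle (Mmp14 −0.054 and Timp2 −0.033). With spots in 1 selection only the counts were 3186 genes called in epidermis and 2371 genes called in endothelium. With spots in 1 selection only the sign turned in cartilage (Mmp13 −0.060), muscle (Mmp14 −0.000657), epidermis (Mmp13 −0.58), endothelium (Timp1 −0.070) and fibrous tissue (Mmp16 0.067 and Timp1 0.0057). With the top 5% of spots the counts were 2787 genes called in endothelium. With the top 5% of spots the sign turned in muscle (Mmp11 −0.024, Mmp14 −0.073 and Timp2 −0.064), epidermis (Mmp13 −0.34), neuron (Timp4 0.13), endothelium (Mmp16 −0.018, Timp1 −0.0064 and Timp4 −0.12) and fibrous tissue (Timp4 −1.64). With the top 20% of spots the counts were 5 members called in muscle and 5 members called in epidermis. With the top 20% of spots the sign turned in epidermis (Timp1 0.42), the Osr2 list (Timp1 0.13), endothelium (Mmp13 0.14) and fibrous tissue (Mmp16 0.081, Timp1 0.23 and Timp4 −0.081). Without the neural-marker spots the counts were 2626 genes called in endothelium. Without the neural-marker spots the sign turned in muscle (Mmp2 −0.036, Mmp11 −9.99e-05, Mmp14 −0.16 and Timp2 −0.12), epidermis (Mmp13 −0.12), endothelium (Mmp16 −0.0052, Timp1 −0.070 and Timp4 −0.0083) and fibrous tissue (Timp4 −0.034). Without the E14.5 section A the sign turned in fibrous tissue (Timp4 −0.012). Without a filter the counts were 15 genes called in the stage comparison within bone and 1 member called in the stage comparison within bone. With areas thinned to the smallest total the counts were 1 gene called in the stage comparison within bone. With areas thinned to the smallest total the sign turned in the stage comparison within bone (Mmp16 −0.11).

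The genes called ran from 0 to 78 in the stage comparison of whole areas. With 1 area left out, the genes called in marker-rich spots ran from 4755 to 7760 in bone (5464 and 6854 between), 1435 to 5203 in cartilage (2618 and 2841 between), 4150 to 7148 in muscle (4370 and 6986 between), 3632 to 6870 in epidermis (3644 and 5518 between), 4144 to 6800 in radial glia (5965 and 6495 between), 1960 to 4535 in the Osr2 list (2861 and 4517 between), 1353 to 5900 in endothelium (2150 and 4765 between) and 5054 to 7972 in fibrous tissue (5227 and 7687 between). For the interaction the genes called ran from 10 to 787 in bone (223 and 243 between), 78 to 2189 in cartilage (97 and 139 between), 0 to 487 in muscle (1 and 22 between), 0 to 6 in epidermis, 0 to 728 in neuron (333 between), 0 to 245 in radial glia (52 between), 1 to 679 in the Osr2 list (98 and 535 between), 2 to 2083 in endothelium (18 and 338 between) and 0 to 373 in fibrous tissue (61 between). For the interaction the members called ran from 0 to 2 in bone, 0 to 2 in cartilage (1 between), 0 to 3 in neuron (1 between), 0 to 3 in endothelium and 0 to 1 in fibrous tissue. With 1 area left out, the members called in marker-rich spots ran from 2 to 4 in muscle, 1 to 3 in epidermis, 2 to 5 in the Osr2 list and 2 to 6 in endothelium. The genes called ran from 1 to 14 in the stage comparison within bone (6 and 11 between). The members called ran from 0 to 1 in the stage comparison within bone.

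Same-numbered areas of the stages share only a number, which goes with the Space Ranger version (correlation of their deviations 0.30 over 15609 genes, 2 pairs). With the replicate block, the stage comparison of whole areas called 0 genes, and that within bone called 4 genes with 1 member, Mmp13 (1.76, adjusted p = 0.0756). Without E15.5 replicate 1, members whose sign turned without E14.5 replicate 1 had 0.59 (Timp4, stage comparison of whole areas), 0.026 (Mmp14, muscle), −0.36 and 0.27 (Mmp11 and Mmp16, stage comparison within bone). Leaving out 1 area leaves a stage with 1, which is assumed to vary like the other areas. The alternatives without the E14.5 section A and without the neural-marker spots were added after the data had been seen. Depth limits Timp4 everywhere and Mmp13 and Timp1 in the E14.5 single-section area. Spots mix cells, and 2 areas a stage give little power, so a change that was not called may still be there.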
